A study of Mus musculus with 14 samples.

Results

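The genes described are 10 products linked to Paneth cells, the secretory cells at the base of small-intestinal crypts: Lyz1, Defa17, Defa24, Defa30, Mmp7, Ang4, Itln1, Reg3g, Reg3b and Nupr1. They were taken by symbol from 55421 genes listed in the set 1 files, which hold all 10, and from 17490 listed in the set 2 files, which hold 6 of them (Lyz1, Defa24, Mmp7, Ang4, Itln1 and Nupr1). Defa17, Defa30, Reg3g and Reg3b are not listed in the set 2 files. The study depleted Suv4-20h2, a methyltransferase of histone H4 lysine 20 listed as Kmt5c, in mouse small-intestinal tumor organoids called APT, to ask what the enzyme does in these cells. Set 1 has 3 libraries of shSuv4-20h2_#1, a hairpin against exon 4 (hairpin 1), and 3 of its control shCtrl_#1 (control 1). Set 2 has 4 libraries of shSuv4-20h2_#2, a hairpin against exon 9 (hairpin 2), and 4 of its control shCtrl_#2 (control 2). All 4 groups, controls included, received doxycycline at 0.5 µg/ml for 4 days, the labels number each hairpin as 1 clone of an established organoid line, and they do not say whether replicates were separate cultures, so p-values measure only the spread between these libraries.

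Paneth cells store lysozyme, alpha-defensins and other antimicrobial proteins in granules and release them into the crypt lumen, where they limit bacteria near the stem cells. Their maturation depends on Wnt signalling, which acts through TCF factors on DNA, and the same cells supply Wnt and Notch ligands to neighbouring stem cells. Nupr1 is the exception among the 10: it encodes a small nuclear protein induced by cell stress and is not an antimicrobial.

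The alpha-defensin genes are near-identical copies, which bears on how their counts can be read. Over 279 coding bases of the GENCODE M21 transcripts (GRCm38), Defa24 and Defa30 were 98.6% identical, Defa17 and Defa30 97.1%, and Defa17 and Defa24 95.7%. The 90-base stretches below lie within 1 coding exon of each gene on the plus strand, at chr8:21656549-21656638 for Defa17, chr8:21735285-21735374 for Defa24 and chr8:21135411-21135500 for Defa30, and capitals mark the bases that differ from Defa24.
Defa17: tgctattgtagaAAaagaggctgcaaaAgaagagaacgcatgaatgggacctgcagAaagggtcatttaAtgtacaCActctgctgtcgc
Defa24: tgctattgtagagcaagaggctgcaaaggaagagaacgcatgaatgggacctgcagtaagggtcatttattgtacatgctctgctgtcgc
Defa30: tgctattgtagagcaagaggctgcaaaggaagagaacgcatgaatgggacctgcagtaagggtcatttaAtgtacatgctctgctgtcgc
In these stretches Defa17 differed from Defa24 at 7 bases and Defa30 differed from it at 1. Of the 50-base windows in its transcripts, Defa17 shared 92.0% with another gene, Defa30 52.4% and Defa24 28.1%. A read from such a window cannot be given to 1 gene by its sequence, so the split of counts among the defensins is uncertain, and their sum is given beside them. Lyz1 shared 16.1% of its windows with Lyz2, a lysozyme of macrophages, and Ang4 shared 4.70%. Itln1 shared 0.972% and Nupr1 0.686%, while Mmp7, Reg3g and Reg3b shared none. Mmp7 is overlapped by an annotated antisense gene, AV064505; the libraries were made with a stranded kit, but whether strand was used in counting is not given in the sources used here.

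The promoters of Lyz1 and Defa30, the most abundant defensin of set 1, are shown because they hold the short motif read by TCF factors. Each stretch is the 250 bases before the RefSeq start (GRCm38.p6), at chr10:117292869-117293118 on the minus strand for Lyz1 and chr8:21134400-21134649 on the plus strand for Defa30, and capitals mark CTTTGA or CTTTGT on either strand, which reads TCAAAG or ACAAAG on the other.
Lyz1: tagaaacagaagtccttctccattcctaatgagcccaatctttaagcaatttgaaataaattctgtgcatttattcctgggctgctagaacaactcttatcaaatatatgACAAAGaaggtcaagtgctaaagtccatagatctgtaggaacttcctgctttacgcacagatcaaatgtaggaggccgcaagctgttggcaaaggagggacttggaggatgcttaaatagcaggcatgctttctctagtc
Defa30: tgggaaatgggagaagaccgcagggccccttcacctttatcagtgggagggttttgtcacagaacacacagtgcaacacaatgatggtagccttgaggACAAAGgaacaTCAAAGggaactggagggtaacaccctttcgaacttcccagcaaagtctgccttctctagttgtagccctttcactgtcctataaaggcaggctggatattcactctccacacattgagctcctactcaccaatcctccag
Of the 8 genes with an entry in the promoter table, 5 held the motif (Lyz1, Defa30, Ang4, Reg3g and Reg3b), or 62.5%, against 27.6% of 32851 promoter stretches of that length. Defa30 held 2 matches, and 5.15% of all promoters held at least 2. The TATA box letters TATAAA stood on the gene strand in 4 of the 8 (Defa30, Mmp7, Reg3g and Reg3b), against 7.59% of all. A match is a description of the letters and not evidence of binding. Defa17 and Defa24 had no entry. For each of the 8 genes the start nearest its GENCODE start was used, whereas the 32851 stretches were not reduced to 1 per gene, so the shares differ in unit. The RefSeq start used for Nupr1 lay 5391 bases from its GENCODE start, and that for Reg3b 228 bases from it.

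Total counts ran from 9272134 to 26284079 per library. Kmt5c, the targeted gene, had 53.6, 64.2 and 56.0 counts per 1000000 counts (CPM) in hairpin 1, against 72.2, 75.7 and 67.2 CPM in control 1. In set 2, Kmt5c had 114, 111, 99.2 and 106 CPM in hairpin 2, against 129, 121, 116 and 128 CPM in control 2. The hairpin libraries lay below all their controls in both sets, and edgeR's quasi-likelihood test gave log2 fold changes of -0.31 (adjusted p = 0.801) in set 1 and -0.20 (adjusted p = 0.0977; 0.00741 with replicate number as a block) in set 2. CPM here are counts divided by TMM-scaled library totals, and adjusted p-values come from that edgeR test with Benjamini-Hochberg adjustment over all genes of a set and a threshold of 0.05. Hairpin 1 replicate 1 stood apart from the other set 1 libraries in most genes described here, so its values are given separately.

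Levels of the 10 genes were first set in order within each group per transcript length, as TPM (transcripts per 1000000) from annotated exon lengths. In control 1 the order by median TPM was Defa30 (7810.3), Ang4 (1281), Lyz1 (1138), Defa24 (1066), Nupr1 (666), Mmp7 (577), Itln1 (214), Defa17 (68.8), Reg3g (1.09) and Reg3b (0.563). Only 3 neighbours in that order had TPM ranges that did not meet: Defa30 lay above Ang4, Mmp7 above Itln1, and Defa17 above Reg3g. All other neighbours overlapped across the 3 control 1 libraries. In hairpin 1 no neighbouring ranges were apart. In set 2 the order was Nupr1, Itln1, Mmp7, Ang4, Lyz1 and Defa24 in both groups. Ranges of Ang4 and Lyz1 overlapped in both groups, those of Itln1 and Mmp7 in control 2, and those of Lyz1 and Defa24 in hairpin 2. The median TPM of Nupr1 was 531 in hairpin 2 and 457 in control 2, and that of Lyz1 was 2.21 in hairpin 2 and 5.81 in control 2.

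Levels differed between the sets, whose CPM were scaled separately. Lyz1 reached 351 to 532 CPM in control 1 and 0.851 to 3.97 CPM in control 2. Defa24 reached 82.7 to 737 CPM in control 1, while control 2 held 0, 0, 1 and 4 counts of it. Of the 6 genes listed in both sets, 5 had control 2 levels below every control 1 library, against 27.9% of the genes tested in both sets, and Itln1, at 14 to 36.9 CPM in control 2 and 33.1 to 135 CPM in control 1, overlapped. Mmp7 stayed measurable, at 11.3 to 14.2 CPM in control 2 and 128 to 331 CPM in control 1. The 11 other Paneth cell products listed in set 2 summed to 80.6 to 125 CPM in control 2, of which Pla2g2a gave 59.5 to 99.6 CPM. Of these 11, Mptx2, a mucosal pentraxin, had no count in any set 2 library, and Clps, a cofactor of pancreatic lipase, had at most 1 count in any (both chosen after their values were seen). Lyz1 and Defa24, which define Paneth cells, were thus at high levels in control 1 and at trace levels in control 2, whereas Mmp7, Itln1 and Pla2g2a were present in both. Not every set 1 library was high: hairpin 1 replicate 1 had 1.84 CPM of Lyz1 and 5.04 CPM of Defa24. Set, hairpin and any batch cannot be told apart, no test was run between sets, and in these bulk samples fewer Paneth-like cells and less RNA per cell cannot be told apart either.

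**Figure D1:**
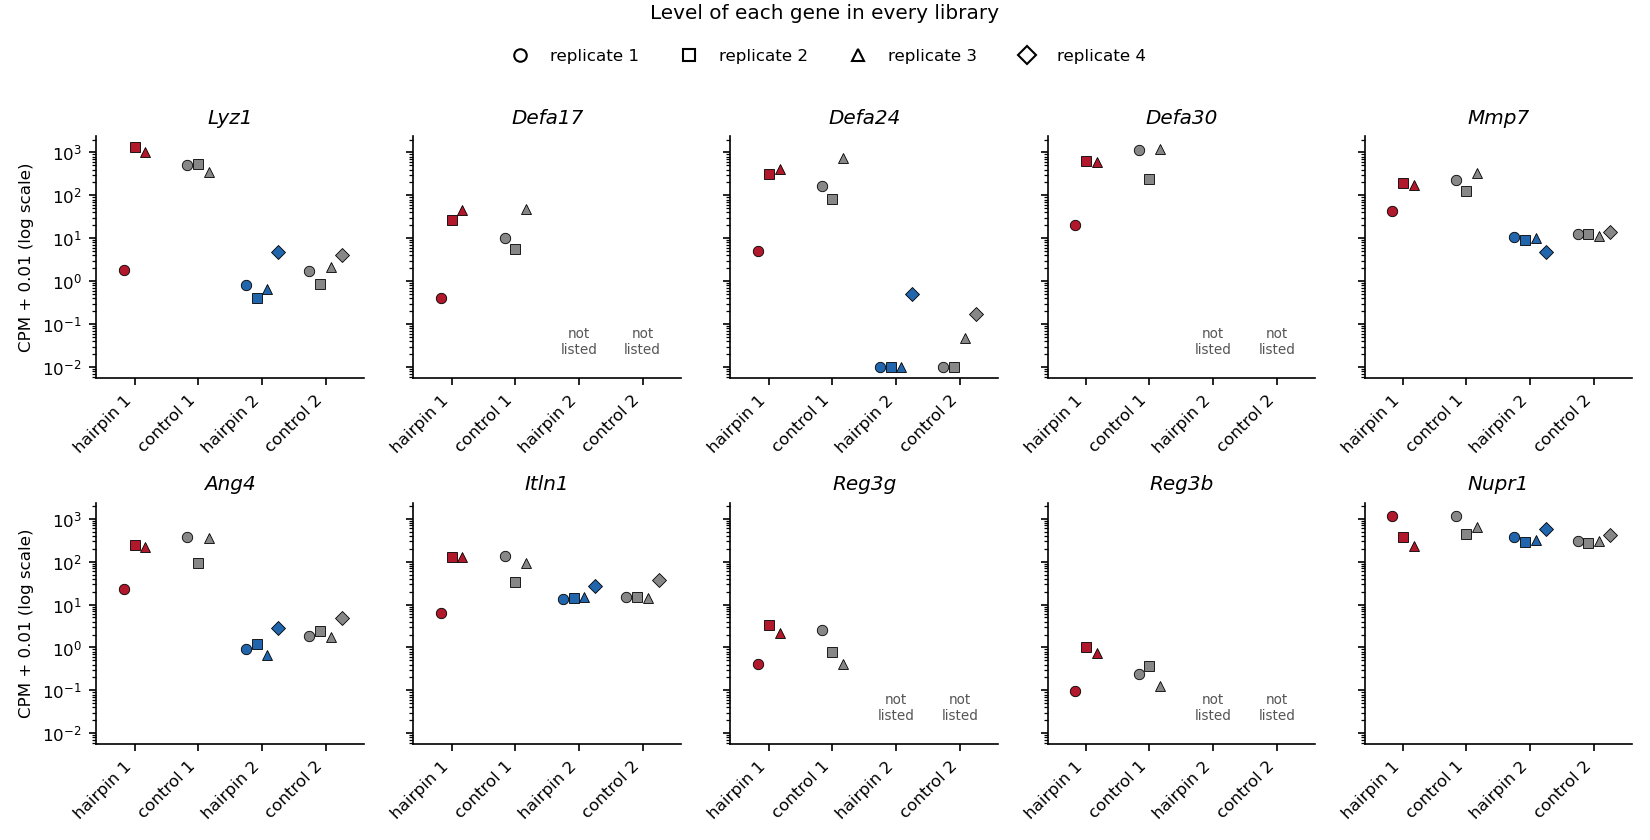
CPM + 0.01 on a log scale for each of the 10 genes in all 14 libraries; each point is 1 library, its shape gives the replicate number, and groups run hairpin 1, control 1, hairpin 2 and control 2. Hairpin 1 replicate 1 (red circle) is the lowest set 1 library for 9 genes and the highest for Nupr1, and set 2 replicate 4 (diamonds) is the highest library of both groups for Lyz1, Defa24, Ang4, Itln1 and Nupr1.

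Hairpin 1 replicate 1 held far fewer granule transcripts than hairpin 1 replicates 2 and 3 and all 3 control 1 libraries. It was the lowest of the 6 set 1 libraries for 9 of the 10 genes and the highest for Nupr1. Among 13540 tested genes, 33.7% were lowest and 30.7% highest in this library, so a position at the end of the range was common. A deficit of over 8-fold from the median of the other 5 libraries was not: it held for 6 of the 10 genes (Lyz1, Defa17, Defa24, Defa30, Ang4 and Itln1), against 4.36% of tested genes. With all 6 libraries, edgeR called 0 of the 9 genes tested (Reg3b was below the filter on low counts) and 0 of 13540 genes, or 0%. None of the 9 had an unadjusted p under 0.05, against 732 of all genes, and the median log2 fold change of the 9 was -0.33, against 0.03 over all genes tested. Without hairpin 1 replicate 1 the median over the 10 genes then tested was 0.37, against -0.02 over all genes. The DESeq2 Wald test and voom with library quality weights also called 0 of them (18 and 8 of all genes), and Nupr1 alone had an unadjusted p under 0.05 by voom.

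Lyz1 (ENSMUSG00000069515, chr10:117287797-117292868, minus strand) encodes the lysozyme of Paneth granules, which cuts bacterial cell wall peptidoglycan. It had 1.84, 1312 and 1036 CPM in hairpin 1 replicates 1, 2 and 3, against 519.7, 532 and 351 CPM in control 1. Replicate 1, with 42 counts, was 289-fold below the median of the other 5 libraries, whereas replicates 2 and 3 both exceeded every control 1 library. The fit over all 6 libraries gave a log2 fold change of 0.74 (SE 1.43, adjusted p = 0.926). Replicates 2 and 3 averaged 1174 CPM, against a control 1 mean of 467 ± 101 CPM (SD, n = 3), or 2.51-fold. Without replicate 1, the log2 fold change of Lyz1 was 1.33 (SE 0.24), and its adjusted p of 0.066, the smallest among the 10 genes, remained above the threshold in a fit that called 1 of 13883 genes, or 0.0072%.

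Defa30 (ENSMUSG00000074444, chr8:21134642-21135598, plus strand), Defa24 (ENSMUSG00000064213, chr8:21734494-21735471, plus strand) and Defa17 (ENSMUSG00000060208, chr8:21655780-21656735, plus strand) encode alpha-defensins, small peptides that disrupt microbial membranes. Defa30 had 20.9, 634 and 611 CPM in hairpin 1, against 1124, 241 and 1234 CPM in control 1. Defa24 had 5.04, 322 and 412 CPM in hairpin 1, against 162, 82.7 and 737 CPM in control 1. Defa17 had 0.394, 26.6 and 45.2 CPM in hairpin 1, against 9.88, 5.48 and 48.8 CPM in control 1. For each of the 3, replicate 1 was the lowest library, by 30.3-fold for Defa30, 64.0-fold for Defa24 and 67.6-fold for Defa17 from their median. Hairpin 1 replicates 2 and 3 lay within the control 1 range for all 3, and that range was wide, spanning 5.12-fold for Defa30 and 8.91-fold for Defa24. The log2 fold changes over all libraries were -1.04 (SE 1.07) for Defa30, -0.41 (SE 1.30) for Defa24 and 0.17 (SE 1.32) for Defa17, with adjusted p-values from 0.854 to 0.98.

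Summing the family avoids the split of counts among its copies, though not reads shared with other genes or any not counted because they matched several places. Of 39 Defa genes and pseudogenes listed in set 1, 20 had a count and 11 were tested, and Defa17, Defa24 and Defa30 together held 91.7 to 95.5% of the family's counts in each library. The sum was 27.5, 1048 and 1119 CPM in hairpin 1, against 1414, 349 and 2149 CPM in control 1. Its log2 fold change was -0.83 (SE 1.13, adjusted p = 0.894), or -0.27 (SE 0.54, adjusted p = 0.843) without hairpin 1 replicate 1. None of the 11 tested family members was called, and 9 of the 11 had a fold change below 0. The family's median log2 fold change was -0.41 with all libraries and 0.18 without hairpin 1 replicate 1.

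Mmp7 (ENSMUSG00000018623, chr9:7692090-7699585, plus strand) encodes matrilysin, the protease that in mice cuts alpha-defensin precursors into active peptides. It had 43.0, 193 and 176 CPM in hairpin 1, against 223, 128 and 331 CPM in control 1. Its low value in replicate 1 was 4.48-fold below the median of the other libraries, a smaller deficit than those of Lyz1 and the defensins, and replicates 2 and 3 lay inside the control range. The log2 fold change was -0.73 (SE 0.57, adjusted p = 0.823) with all libraries and -0.30 (SE 0.32, adjusted p = 0.68) without replicate 1.

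Ang4 and Itln1 encode further secreted defence proteins. Ang4 (ENSMUSG00000060615, chr14:51763878-51773590, minus strand), a secreted ribonuclease with microbicidal activity, had 23.6, 249.9 and 216 CPM in hairpin 1, against 377, 94.9 and 353 CPM in control 1. Itln1 (ENSMUSG00000038209, chr1:171518122-171535294, minus strand), a lectin that binds microbial glycans, had 6.44, 132 and 129 CPM in hairpin 1, against 135, 33.1 and 94.9 CPM in control 1. For both, hairpin 1 replicate 1 lay lowest, by 10.6-fold for Ang4 and 20.0-fold for Itln1 from the median of the others, and replicates 2 and 3 overlapped control 1. Log2 fold changes were -0.75 (SE 0.83, adjusted p = 0.862) for Ang4 and 0.02 (SE 0.95, adjusted p = 0.996) for Itln1.

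Reg3g and Reg3b encode C-type lectins that bind bacteria at the mucosal surface and are induced by interleukin 22. Both were near the limit of detection. Reg3g (ENSMUSG00000030017, chr6:78466269-78468872, minus strand) had 9, 61 and 40 counts in hairpin 1, against 43, 13 and 7 counts in control 1, and Reg3b (ENSMUSG00000071356, chr6:78370657-78373466, plus strand) had 2, 18 and 14 counts in hairpin 1, against 4, 6 and 2 counts in control 1. Reg3g overlapped between the groups, with a log2 fold change of 0.68 (SE 0.91, adjusted p = 0.893). Reg3b was higher in hairpin 1 replicates 2 and 3 (1.01 and 0.741 CPM) than in every control 1 library (0.117 to 0.354 CPM). Without replicate 1 it could be tested, and the log2 fold change was 1.87 (SE 0.63, adjusted p = 0.206).

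Nupr1 (ENSMUSG00000030717, chr7:126623249-126630861, minus strand) was highest in hairpin 1 replicate 1 among the set 1 libraries, where the other 9 were lowest. It had 1183, 375 and 236 CPM in hairpin 1, against 1173, 436 and 650.5 CPM in control 1. Replicate 1 lay just above the highest control, whereas replicates 2 and 3 lay below all controls and averaged 306 CPM, against a control 1 mean of 753 ± 379 CPM (SD, n = 3), or 0.406-fold. The log2 fold change was -0.33 (SE 0.63, adjusted p = 0.926) with all libraries and -1.30 (SE 0.39, adjusted p = 0.17) without replicate 1. With replicate 1 set aside, 2 of the 10 genes (Lyz1 and Reg3b) lay above all controls and 1 (Nupr1) lay below, against 17.5 and 17.6% of tested genes. With all 3 hairpin 1 libraries, no gene of the 10 was clear of the controls in either direction, against 6.5% of tested genes above and 6.34% below.

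**Figure D2:**
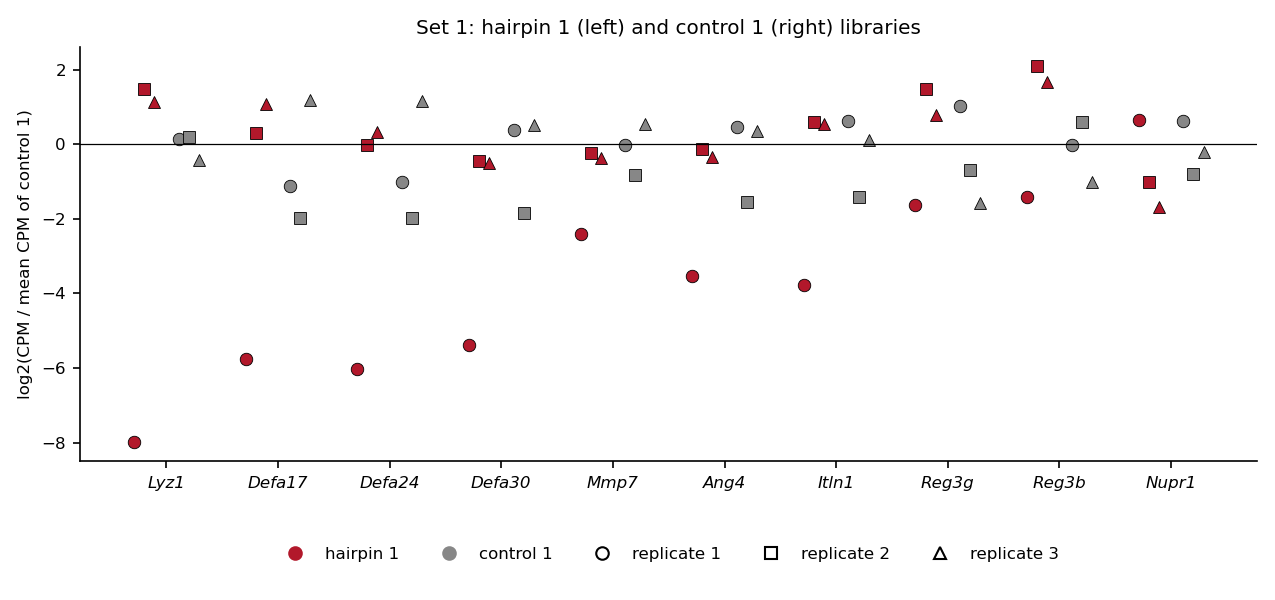
log2 ratio of each set 1 library to the mean CPM of control 1, for the 10 genes, with hairpin 1 libraries on the left and control 1 libraries on the right of each gene; each point is 1 library and shapes give replicate numbers. Hairpin 1 replicate 1 lies far below 0 for Lyz1 and the defensins, and replicates 2 and 3 lie above all control points for Lyz1 and Reg3b and below them for Nupr1.

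The control 1 libraries differed among themselves in a way that split Lyz1 from the other granule genes. Control 1 replicate 2 was the lowest control for 7 of the 10 genes (Defa17, Defa24, Defa30, Mmp7, Ang4, Itln1 and Nupr1). It was the highest control for Lyz1, whose control levels spanned only 1.51-fold, while Ang4 spanned 3.97-fold and Itln1 4.07-fold. The ratio of Lyz1 to Defa30 CPM was 0.0881, 2.07 and 1.70 in hairpin 1, against 0.462, 2.21 and 0.285 in control 1. The ratio of Ang4 to Itln1 CPM varied less, at 3.67, 1.89 and 1.68 in hairpin 1 and 2.80, 2.87 and 3.72 in control 1. Lyz1 and the defensins therefore did not keep a fixed proportion, even among the controls.

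Markers of other cell types moved with hairpin 1 replicate 1 as well, a library in which 33.7% of tested genes were lowest and 30.7% highest. All 7 goblet markers were lowest in this library, and their summed level was 116 CPM, against 2056 and 2107 CPM in hairpin 1 replicates 3 and 2, and 955 to 1764 CPM in control 1. Of 4 stem cell markers 3 were lowest there, with a sum of 60.7 CPM, against 375 to 653 CPM in hairpin 1 replicates 2 and 3, and 307 to 438 CPM in control 1. The 6 enterocyte markers summed to 53.2 CPM in replicate 1, against 6.35 to 11.5 CPM in hairpin 1 replicates 2 and 3, and 3.77 to 11.5 CPM in control 1, and Krt20 gave 49.9 CPM of the replicate 1 sum. The 5 macrophage markers summed to 55.0 CPM in replicate 1, against 5.72 to 7.85 CPM in hairpin 1 replicates 2 and 3, and 9.61 to 39.9 CPM in control 1. Of the 5 macrophage markers, 3 (Cd68, Ptprc and Adgre1) were highest in replicate 1 and 1 was lowest there. Nearly all of that sum was Cd68, at 53.8 CPM in replicate 1. Ptprc reached 0.876 CPM and Adgre1 0.263 CPM in replicate 1, and Csf1r and Lyz2 had no count there. Spink4 is on both the goblet list and that of other Paneth cell products, and Lyz2 on both the macrophage list and that of other Paneth cell products. The 6 epithelial markers summed to 3414 CPM in replicate 1, against 3944 to 4489 CPM in hairpin 1 replicates 2 and 3, and 3469 to 4136 CPM in control 1. The enteroendocrine, tuft and fibroblast lists were low throughout set 1, with sums of 0.35, 0.832 and 2.06 CPM in replicate 1, and each at most 10.7 CPM in any other set 1 library. What part any of these cell types has in the values of the 10 genes was not tested.

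**Figure D3:**
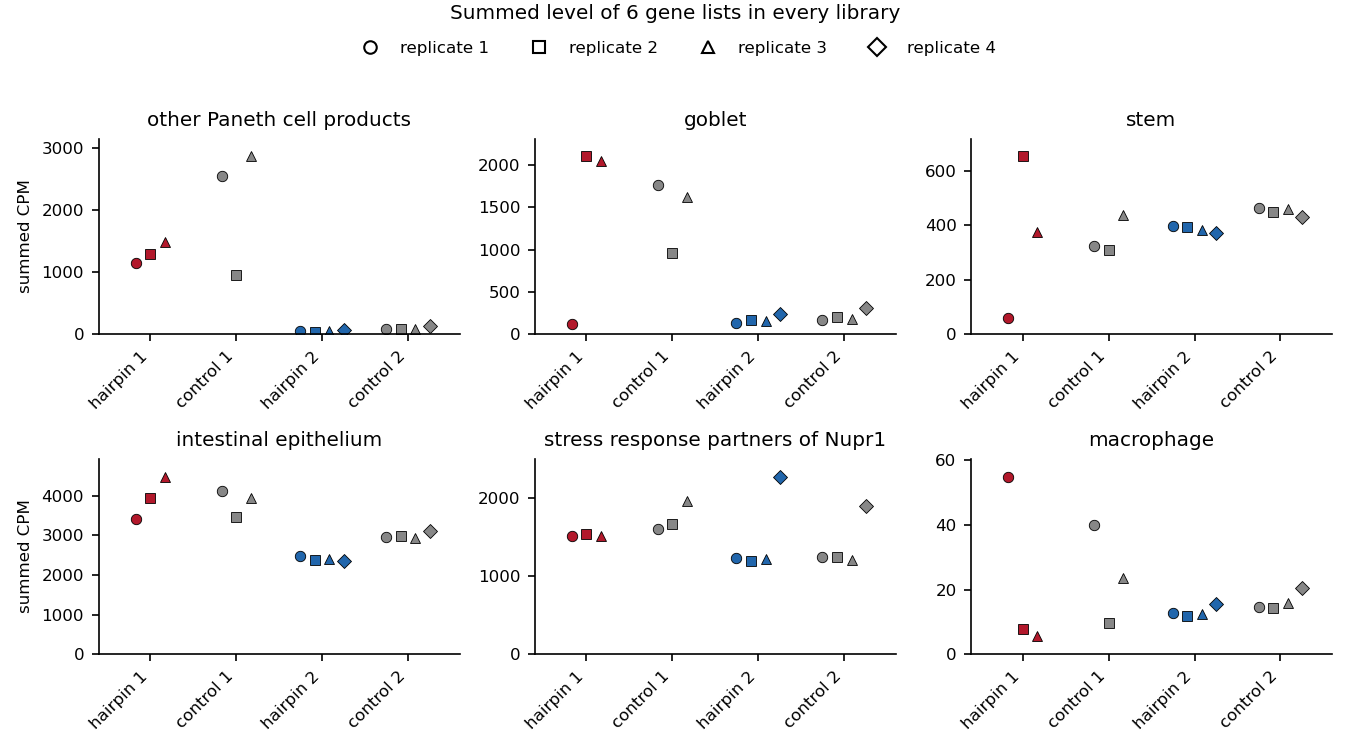
Summed CPM of 6 gene lists (other Paneth cell products, goblet, stem and intestinal epithelial markers, stress response partners of Nupr1, and macrophage markers) in all 14 libraries; each point is 1 library, shapes give replicate numbers, and groups run hairpin 1, control 1, hairpin 2 and control 2. Hairpin 1 replicate 1 has the lowest goblet and stem sums and the highest macrophage sum of set 1, and set 2 replicate 4 has the highest stress sums of set 2.

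Other genes of Paneth cells gave no call in set 1 either, in a fit that called 0 of 13540 tested genes. Of 9 tested genes among other Paneth cell products, 0 were called and 7 had a fold change below 0. Mptx1 had 0.482, 212 and 128 CPM in hairpin 1, against 82.2, 35.5 and 109 CPM in control 1, and Clps had 0.92, 51.3 and 26.4 CPM in hairpin 1, against 36.5, 15.9 and 41.7 CPM in control 1; both were chosen after their values were seen. Pla2g2a, a secreted phospholipase that attacks bacterial membranes, kept 1127, 613 and 1016 CPM in hairpin 1, against 1813, 692 and 2231 CPM in control 1, so replicate 1 was not its lowest library. Reg4, another Reg family lectin, had 65.9, 1050.5 and 877 CPM in hairpin 1, against 1464, 642 and 1502 CPM in control 1. Among 10 regulators of Paneth cell fate, 0 were called and 6 were lowest in replicate 1, where 33.7% of tested genes were lowest. Atoh1, the factor that commits cells to the secretory lineage, had 2.36, 58.4 and 51.7 CPM in hairpin 1, against 23.9, 20.5 and 28.9 CPM in control 1. Sox9, a Wnt target needed for Paneth cells, had 241, 175 and 131 CPM in hairpin 1, against 140.1, 110.1 and 247 CPM in control 1, and overlapped. Atoh1 and Sox9 were also chosen after their values were seen.

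Stress genes that work with Nupr1 were read beside it. None of 9 tested partners was called in set 1, and 7 had fold changes below 0, with a median of -0.50 against 0.03 over all tested genes. Trib3, a pseudokinase induced by ATF4, had 28.6, 9.98 and 8.63 CPM in hairpin 1, against 48.2, 43.4 and 24.5 CPM in control 1 (log2 fold change -1.29, adjusted p = 0.801). Chac1, which degrades glutathione, had 15.6, 7.91 and 6.40 CPM in hairpin 1, against 40.6, 24.9 and 14.6 CPM in control 1 (log2 fold change -1.42, adjusted p = 0.801). Trib3, Chac1 and Nupr1 thus shared low values in hairpin 1 replicates 2 and 3, and each lay below every control 1 library there. The same held for 6 of the 9 partners, these 2 among them, against 17.6% of tested genes.

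In set 2 Nupr1 had 269 to 564 CPM, and the other testable genes had 0.394 to 36.9 CPM. None of the 5 testable genes was called with all 8 libraries, against 854 of 14126 genes, or 6.05%. Their median log2 fold change was -0.53, against 0.00 over all tested genes, and Mmp7 alone had an unadjusted p under 0.05, where all genes gave 2793. The DESeq2 Wald test also called none, with Mmp7 and Ang4 under that unadjusted p, whereas voom with library quality weights called both Mmp7 and Ang4 lower, and 17.5% of all genes. In set 2, deviations from the group mean in same-numbered libraries correlated at 0.255 to 0.393 for replicates 1 to 3 and 0.691 for replicate 4. Differently numbered libraries among replicates 1 to 3 gave 0.179 to 0.293, so only replicate 4 was clearly paired by number. Pairs below are libraries of the same number, whose meaning is not stated. The fit with replicate number as a block is given beside each of the 5 genes, and for other genes and lists where it changes a call or a count. That fit called 3 of the 5 (Mmp7 and Ang4 lower, Nupr1 higher), against 20.4% of all genes, of which 10.2% were higher and 10.1% lower. The share of calls among these 5 genes is a small count and no test sets it against the background.

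Ang4 was lower in hairpin 2 in every pair. It had 20, 30, 6 and 34 counts in hairpin 2 replicates 1 to 4, against 40, 47, 46 and 124 counts in control 2, or 0.891, 1.18, 0.649 and 2.82 CPM against 1.82, 2.35, 1.76 and 4.97 CPM. The pooled groups overlapped because replicate 4 was high in both, but the log2 ratio within pairs was -1.03, -0.99, -1.44 and -0.82. The log2 fold change was -1.02 (SE 0.47, adjusted p = 0.267) without the block and -0.99 (SE 0.19, adjusted p = 0.00357) with it. Without hairpin 2 replicate 4 it was -1.50 (adjusted p = 0.0493), without both replicate 4 libraries -1.0 (adjusted p = 0.00929), and without control 2 replicate 4 -0.55 (adjusted p = 0.518). A ratio below 0 in all 4 pairs was found for 2 of the 6 listed genes (Ang4 and Mmp7), against 20.1% of tested genes.

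Mmp7 did not overlap between the groups. It had 10.5, 9.03, 10.2 and 4.81 CPM in hairpin 2, against 12.5, 12.6, 11.3 and 14.2 CPM in control 2, and averaged 8.62 ± 2.61 CPM in hairpin 2 and 12.6 ± 1.16 CPM in control 2 (SD, n = 4 each). Every hairpin 2 library lay below every control 2 library, as for 8.42% of tested genes. The gap was widest in replicate 4, with log2 ratios of -0.25, -0.48, -0.16 and -1.56 within pairs 1 to 4. The log2 fold change was -0.54 (SE 0.20, adjusted p = 0.158) without the block and -0.55 (SE 0.17, adjusted p = 0.0373) with it. Without both replicate 4 libraries it was -0.30 (SE 0.10, adjusted p = 0.0403), so the size of the difference rested on replicate 4 and its direction did not.

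Lyz1 was at the edge of detection in set 2. It had 18, 10, 6 and 58 counts in hairpin 2, against 38, 17, 55 and 99 counts in control 2, or 0.802, 0.394, 0.649 and 4.81 CPM against 1.73, 0.851, 2.10 and 3.97 CPM. It was lower in hairpin 2 in replicates 1, 2 and 3 and higher in replicate 4, with log2 ratios of -1.11, -1.11, -1.69 and 0.28. The log2 fold change was -0.53 (SE 0.72, adjusted p = 0.756) with all libraries and -0.56 (SE 0.30, adjusted p = 0.207) with the block. The size of this value hung on single libraries, at -0.09 (adjusted p = 0.971) without control 2 replicate 4 and -0.11 (adjusted p = 0.964) without hairpin 2 replicate 2. Hairpin 2 replicate 4 decided the call: Lyz1 fell by 1.86 on the log2 scale (adjusted p = 0.0471) without it, in a fit that called 9.84% of all genes. Without both replicate 4 libraries Lyz1 fell by 1.41 (SE 0.36, adjusted p = 0.0106), in a fit that called 16.9% of all genes.

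Itln1 and Nupr1 were the most abundant of the listed genes in set 2, and both were highest in replicate 4. Itln1 had 13.3, 14.6, 14.7 and 26.9 CPM in hairpin 2, against 15.1, 14.9, 14 and 36.9 CPM in control 2. Replicates 1 to 3 lay within 13.3 to 14.7 CPM in hairpin 2 and 14 to 15.1 CPM in control 2, the groups overlapped, and replicate 4 stood higher in each. The log2 fold change of Itln1 was -0.24 (SE 0.34, adjusted p = 0.77), or -0.18 (SE 0.09, adjusted p = 0.19) with the block. Nupr1 had 367, 294, 327 and 564 CPM in hairpin 2, against 305, 269, 295 and 424 CPM in control 2. The groups overlapped, but Nupr1 was higher in hairpin 2 in all 4 pairs, as were 20.5% of tested genes, with log2 ratios of 0.27, 0.13, 0.15 and 0.41. Its log2 fold change was 0.26 (SE 0.20, adjusted p = 0.543) without the block, and it rose by 0.24 (SE 0.05, adjusted p = 0.00668) with it. Without both replicate 4 libraries the log2 fold change of Nupr1 was 0.18 (adjusted p = 0.073), and without hairpin 2 replicate 4 alone 0.03 (adjusted p = 0.926).

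Defa24 had 0, 0, 0 and 6 counts in hairpin 2, against 0, 0, 1 and 4 counts in control 2. Both groups were at or under the limit of detection, so no fold change is given. A count of 0 allows at most 0.119 to 0.324 CPM in the 3 hairpin 2 libraries and 0.136 to 0.151 CPM in the 2 control 2 libraries that had none (3 counts per library, counting error only). Only 3 Defa genes are listed in set 2, and they held 13 counts among 162322305.

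**Figure D4:**
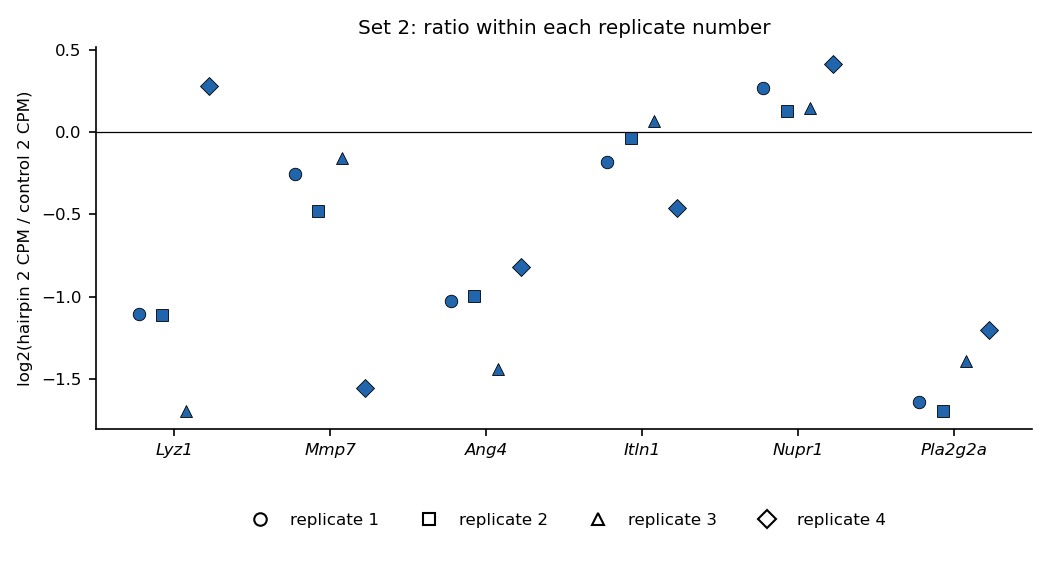
log2 ratio of hairpin 2 to control 2 CPM within each replicate number of set 2 for Lyz1, Mmp7, Ang4, Itln1, Nupr1 and Pla2g2a; each point is 1 pair and shapes give the replicate number. All 4 ratios lie below 0 for Mmp7, Ang4 and Pla2g2a and above 0 for Nupr1, while the replicate 4 ratio of Lyz1 lies on the other side of 0 from its other 3.

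Replicate 4 was the highest library of both set 2 groups for 5 of the 6 listed genes (Lyz1, Defa24, Ang4, Itln1 and Nupr1), against 24.1% of tested genes. Stress response genes stood with it: the partners of Nupr1 summed to 2276 CPM in hairpin 2 replicate 4 and 1897 CPM in control 2 replicate 4, against 1193 to 1228 CPM in hairpin 2 replicates 1 to 3, and 1213 to 1251 CPM in control 2 replicates 1 to 3. Trib3 had 180.3 CPM in hairpin 2 replicate 4 and 66.2 CPM in control 2 replicate 4, against 11.8 to 19.9 CPM in hairpin 2 replicates 1 to 3, and 8.71 to 9.22 CPM in control 2 replicates 1 to 3. Goblet markers were also highest in replicate 4 of both groups for 6 of 7 genes, with sums of 239 CPM in hairpin 2 and 311 CPM in control 2, against 134 to 170.0 CPM and 166 to 198 CPM in the other libraries of those groups. What part stress or goblet-type RNA has in the replicate 4 levels was not tested.

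Other Paneth and defence genes of set 2 gave some firmer calls, in a fit that called 6.05% of tested genes. Pla2g2a had 20.8, 20.0, 22.7 and 43.2 CPM in hairpin 2, against 64.7, 64.7, 59.5 and 99.6 CPM in control 2, with no overlap. It fell by 1.45 on the log2 scale (SE 0.26, adjusted p = 0.00891) and was the only call among 4 tested genes of the other Paneth cell products. Lypd8, a surface protein that keeps flagellated bacteria from the epithelium, had 3.25, 3.27, 3.46 and 5.06 CPM in hairpin 2, against 29.4, 28.9, 28.7 and 58.2 CPM in control 2. It fell by 3.30 (SE 0.28, adjusted p = 0.00012) and was the only call among 3 tested genes of luminal defence. Reg4 was lower in all 4 pairs, at 3.52, 3.43, 3.68 and 9.21 CPM in hairpin 2, against 5.58, 6.31, 5.69 and 10.8 CPM in control 2. Its log2 fold change was -0.56 (SE 0.35, adjusted p = 0.426; 0.0101 with the block).

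Some regulators and signalling genes linked to Paneth cells also passed the test in set 2. Over all tested genes, 6.05% were called without the block and 20.4% with it. Of 9 tested Paneth cell regulators, 2 fell and 0 rose (2 and 1 with the block), with a median log2 fold change of -0.10. Creb3l1, a membrane-bound factor active in secretory cells, fell by 0.96 (SE 0.16, adjusted p = 0.00623), and Ephb2, a receptor that positions crypt cells, fell by 0.41 (SE 0.07, adjusted p = 0.00514). Sox9 had a log2 fold change of 0.22 (adjusted p = 0.17; 0.0246 with the block). None of 6 ligands of the Paneth cell niche was called (1 lower with the block), and Dll4, a Notch ligand, had a log2 fold change of -0.67 (adjusted p = 0.0793; 0.00103 with the block). Of 9 genes of the pathway that induces Reg3 lectins, 2 rose and 1 fell. Il22ra1, the interleukin 22 receptor chain, fell by 1.0 (SE 0.20, adjusted p = 0.0155), while Jak1 rose by 0.26 (SE 0.06, adjusted p = 0.0275) and Il6st rose by 0.32 (SE 0.07, adjusted p = 0.0322). The Reg3 genes themselves are not listed in set 2. None of 9 stress partners of Nupr1 was called, and with the block 2 were higher, Ddit3 at 0.53 without the block (adjusted p = 0.48; 0.0062 with it) and Trib3 at 1.25 (adjusted p = 0.552; 0.000298 with it).

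Markers of other cell types also differed between the set 2 groups, where 6.05% of tested genes were called without the block and 20.4% with it. Of 6 epithelial markers 3 fell (4 with the block), and the list summed to 2360 to 2484 CPM in hairpin 2, against 2947 to 3105 CPM in control 2. Both tested enterocyte markers fell, Krt20 by 2.65 (adjusted p = 3.88e-06) and Fabp2 by 3.59 (adjusted p = 0.000196), and that list summed to 5.40 to 8.05 CPM in hairpin 2, against 42.2 to 52.4 CPM in control 2. Of 6 tested goblet markers 1 fell, Clca1 by 0.55 (adjusted p = 0.0451), with 0 higher, and the block gave 4 lower and 1 higher. Of 3 stem markers 1 fell, Smoc2 by 0.27 (adjusted p = 0.0192), and the block gave 2 lower. The 1 tested macrophage marker, Cd68, had a log2 fold change of -0.32 (adjusted p = 0.237; 0.0178 with the block). Of 2 tested fibroblast markers 1 rose, Pdgfra by 0.55 (adjusted p = 0.00938), and that list summed to 13.9 to 15.6 CPM in hairpin 2, against 9.22 to 11.9 CPM in control 2. No enteroendocrine or tuft marker was abundant enough to be tested in set 2. What part these have in the levels of the 10 genes was not tested.

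The difference between the hairpin effects was tested in 1 model of all 14 libraries for the 6 genes listed in both sets. edgeR called 0 of the 6 and 62 of 15043 genes, or 0.412%, and none of the 6 had an unadjusted p under 0.05. Lyz1 had a log2 difference of -1.29 (hairpin 2 effect minus hairpin 1 effect, SE 1.76, adjusted p = 0.813), and Nupr1 had 0.59 (SE 0.66, adjusted p = 0.759). Without hairpin 1 replicate 1 these were -1.98 (SE 0.77, adjusted p = 0.142) for Lyz1 and 1.53 (SE 0.46, adjusted p = 0.0632) for Nupr1. The standard errors of Ang4 (1.04), Itln1 (1.03) and Mmp7 (0.61) were larger than their differences of -0.27, -0.26 and 0.17. A difference was thus not detectable with these libraries, which does not show that the hairpins acted alike. The model of all 14 libraries shares 1 dispersion per gene over both sets, although the chi-square per gene between replicates reached 288 in set 1 and 33.9 in set 2. For hairpin 1 it called 187 of 15043 genes, against 0 of 13540 in the fit of set 1 alone. For hairpin 2 it called 120, against 854 of 14126 in the fit of set 2 alone. Its standard errors and p-values carry that limit.

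**Figure D5:**
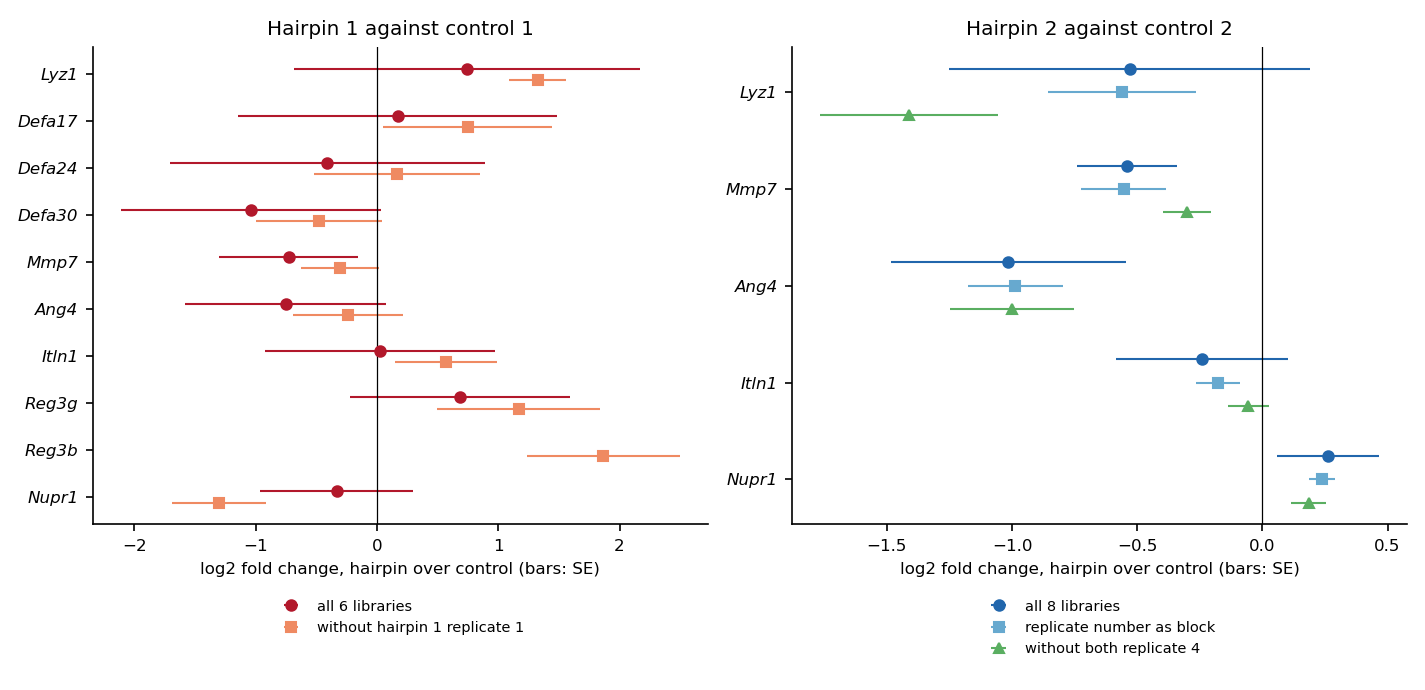
log2 fold change of hairpin over control from edgeR for each testable gene, with bars giving the standard error; the left panel shows hairpin 1 with all 6 libraries and without hairpin 1 replicate 1, and the right panel hairpin 2 with all 8 libraries, with replicate number as a block and without both replicate 4 libraries. Bars are narrower once hairpin 1 replicate 1 is set aside, and Ang4 stays near -1.0 in all 3 fits of set 2.

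The genes whose pattern over the 14 libraries lay nearest to that of Lyz1 were ranked by the root mean square difference of log2(CPM + 1) deviations from the set mean, among the 9665 genes averaging 5 CPM or more in each set. The 8 nearest were Cyp2c55 (0.862), Muc2 (0.938), Tff3 (0.942), Gm45912 (1.02), Prss32 (1.02), Slc5a1 (1.03), Adh1 (1.07) and Cyp2d26 (1.08). Of the 10 genes described, only Mmp7, Itln1 and Nupr1 could be ranked against Lyz1, and none of them was among the 8 nearest. Ang4 and Defa24 averaged below 5 CPM in set 2, and Defa17, Defa30, Reg3g and Reg3b are not listed there. The ranking therefore does not compare Lyz1 with the defensins or Ang4. All 8 nearest genes had their lowest set 1 value in hairpin 1 replicate 1. Muc2 had 8.49, 375 and 274 CPM in hairpin 1, against 217, 141 and 181 CPM in control 1. Cyp2c55 had 0.438 CPM in hairpin 1 replicate 1, against 42.2 to 201 CPM in the other 5 set 1 libraries. All genes were read in the same 14 libraries, so any difference in depth or processing between libraries is common to them. Hairpin 1 replicate 1 weighs most in this measure of likeness.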

How the data were processed

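RNA was measured by poly(A) RNA-seq with a stranded kit in 14 libraries. The deposited values are raw counts per gene, made by the authors with bcl2fastq 2.20, FastQC, STAR, featureCounts and DESeq2 on GRCm38, per the submitters' processing notes, with no version or setting named for the rest. Totals of 9272134 to 26284079 counts set the precision, and the limits given for counts of 0 cover counting error only. No library duplicated another of its own group (lowest chi-square per gene between replicates 3.01), and 0 per-sample columns were left unused. Libraries of different groups were not compared in this way.

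Symbols were matched through GENCODE M21. CPM used TMM-scaled totals, and TPM used annotated exon lengths. Within each set, genes passing edgeR's filterByExpr were tested with edgeR 4.0.16 (quasi-likelihood, R 4.3.3, Benjamini-Hochberg threshold 0.05), and the difference between hairpins was an interaction in 1 model of all libraries. The scripts were tested on simulated data. Alternatives were DESeq2 1.42.0 size factors and its Wald test, voom with quality weights (limma 3.58.1), no filter on low counts, summed defensins, a replicate block, and libraries left out.

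Replicate numbers have no stated meaning. Deviations of same-numbered libraries correlated at 0.371, 0.255, 0.393 and 0.691 in set 2, all over the limit of 0.1, so the block is given there as a pairing seen in the data. Differently numbered libraries among set 2 replicates 1 to 3 also correlated, at 0.179 to 0.293, whereas replicate 4 against them gave -0.501 to -0.365, so among replicates 1 to 3 the numbers are not sharply told apart. All 10 genes are named, with up to 4 genes per other list (smallest p, at least 1 CPM), the 8 genes most like Lyz1, and exceptions stated. The genes and lists were chosen with earlier results of these data known.
1 further marker list is not reported here.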

Additional observations from a re-analysis of the deposited data

Results flagged for a closer look

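In groups of 4 libraries, a library was singled out where its gap to the nearest other library took up most of the group's range (Dixon's 95% limit). Chance alone does so in about 1 in 20 groups of normally spread values, and 4 of the 12 groups of 4 examined for these genes did. These groups are genes read in the same libraries and are not independent, so 4 of 12 cannot be set against that rate. All 4 were replicate 4. In hairpin 2 replicate 4, Lyz1 reached 4.81 CPM, Defa24 reached 0.498 CPM and Itln1 reached 26.9 CPM, each above the other 3 hairpin 2 libraries. In control 2 replicate 4, Itln1 reached 36.9 CPM, above the other 3 control 2 libraries. The Defa24 value rests on 6 counts beside 0 in each other hairpin 2 library, which fixes the statistic at its largest value.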

How the results depend on the processing

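In set 2, the number of the 5 tested genes called was 0 as reported, 2 by voom with library quality weights, 3 with the replicate block and 3 without both replicate 4 libraries; leaving out each library in turn gave 0 to 2, the 2 coming without hairpin 2 replicate 4. Over all genes, the calls numbered 854 (6.05%) as reported, 1321 by the DESeq2 Wald test, 2466 (17.5%) by voom and 2880 (20.4%) with the block. They numbered 2394 (16.9%) without both replicate 4 libraries and 1409 (9.84%) without hairpin 2 replicate 4. In set 1, same-numbered libraries correlated at 0.264, 0.000163 and 0.298 for replicates 1, 2 and 3, so only replicate 2 was under the limit of 0.1. Differently numbered set 1 libraries gave -0.274 to 0.179. The replicate block in set 1 turned the direction of Lyz1 (-0.14), Defa17 (-0.42) and Itln1 (-0.26), and changed no call. It also turned the difference between hairpins for Itln1 (0.077). Voom turned Defa24 (0.46), and summing the defensins gave -0.83 against 0.17 for Defa17 alone. Leaving out 1 library in turn spanned 0 for Defa17 (-0.64 to 1.65), Defa24 (-0.98 to 1.02), Itln1 (-0.37 to 0.57) and Nupr1 (-1.30 to 0.19) in set 1, for Itln1 (-0.52 to 0.23) in set 2, and for the differences of Ang4 (-0.84 to 0.21), Defa24 (-2.79 to 2.56), Itln1 (-0.85 to 0.21) and Mmp7 (-0.28 to 0.46). The cause was not tested. Low counts limit the precision of Reg3g and Reg3b and, in set 2, of Lyz1, Ang4 and Defa24.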
